A study of Mus musculus with 8 samples.

Results

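The 42 genes described here encode the machinery that releases synaptic vesicles, apart from the synapsins: vesicle membrane proteins, calcium sensors, SNARE proteins and their helpers, Rab3 GTPases, active zone scaffolds and a pair of clathrin adaptors. They were chosen by gene symbol from a written list. All 42 of the 24421 gene rows were present in the 8 count tables, and all 42 passed the filter on low counts that left 15438 genes for testing.

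The libraries came from C57BL/6 mice. They were prepared to hold ribosome-bound RNA of the Otp lineage, purified from dissected hypothalamus and medial amygdala. The 4 KO samples carried Otp-Cre, Cicflox/flox and ROSAfsTRAP, and the 4 Control samples carried Otp-Cre and ROSAfsTRAP without the floxed allele. Both groups therefore shared the Cre driver and the ribosome tag, and deletion of Cic, which encodes the repressor Capicua, was limited to cells in which Otp-Cre had been active. The labels give no age and do not say whether a sample is 1 animal or a pool, so each p-value below measures the spread between these samples.

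A vesicle is loaded with transmitter, tethered at the active zone by Rab3 and RIM proteins, primed by Munc13 proteins and fused with the plasma membrane by SNARE proteins. Calcium-sensing synaptotagmins trigger that fusion, complexins clamp and assist it, and NSF with its SNAP adaptors takes the used SNARE complexes apart. In hypothalamic neuroendocrine cells much of the same machinery also serves the release of peptide-filled granules.

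Cic measured 44.0 ± 11.0 CPM in KO and 94.2 ± 14.6 CPM in Control (mean ± SD, n = 4 each), a log2 fold change of -1.10 with edgeR adjusted p = 0.00220. CPM were computed from the counts with TMM library factors, and log2 fold changes are KO over Control. The KO libraries held 33223878 to 49587839 reads counted to genes, and the Control libraries 38171319 to 57300362. Relative to these counts, reads of the ERCC spike-in were 0.0655%, 0.0569%, 0.3946% and 0.0739% in KO replicates 1 to 4. In Control replicates 1 to 4 they were 0.2985%, 0.5217%, 0.4012% and 0.3269%. The share was thus lower in KO replicates 1, 2 and 4 than in every Control library. The cause of this difference and its part in the results below were not tested. All 15 general neuronal markers were tested and none passed, and their sums were 4638 to 5322 CPM in KO libraries and 4818 to 4970 CPM in Control libraries. Otp itself was low, at 4.96 ± 2.54 CPM in KO and 3.45 ± 1.14 CPM in Control, and the 7 lineage and peptide genes checked (Otp, Sim1, Avp, Oxt, Crh, Trh and Sst) all had positive fold changes with a median of 0.51. By edgeR 0 of the 7 passed the threshold and 5 were higher at an unadjusted p under 0.05. Summed over the 7, the groups did not overlap, at 1099.7 to 2012 CPM in the KO libraries against 965 to 1029 CPM in the Control libraries. Taken singly, the groups overlapped for every gene of the 7. Most of the sum was Sst, Avp and Oxt, with means of 727, 329 and 317 CPM in KO. In Control these means were 509, 244 and 189 CPM. Oligodendrocyte markers had negative fold changes in 14 of 14 cases, with 1 past the threshold (Cldn11), 8 lower at an unadjusted p under 0.05, 4 without overlap between the groups, and sums of 1785 to 3271 CPM in KO against 2796 to 3581 CPM in Control. Microglia markers had negative ones in 13 of 14 cases, 0 past it by edgeR and 2 at an unadjusted p under 0.05, and summed to 35.7 to 57.2 CPM in KO against 32.4 to 97.2 CPM in Control. No marker of these 2 lists was at 0 in any library. Astrocyte markers had negative fold changes in 7 of 10 cases, and endothelial and mural markers in 7 of 12. For GABA neuron markers it was 3 of 4 cases, and for glutamate neuron markers 1 of 3. By edgeR 0 markers of these further lists passed the threshold. At an unadjusted p under 0.05, 1 astrocyte marker and 1 endothelial or mural marker were lower, each without overlap between the groups. Neither mRNA per cell nor the number of cells was measured, and in such bulk samples fewer cells of a type cannot be told apart from less RNA per cell. The oligodendrocyte marker sums averaged 2606 CPM in KO and 3268 CPM in Control. For the lineage and peptide genes, a shorter list, these means were 1445 and 993 CPM. No library of unpurified RNA was among the samples, so enrichment of Otp-lineage RNA was not tested. How much of the release genes' signal came from other cells was not tested either.

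No member of the release machinery passed edgeR adjusted p 0.05 between KO and Control, where 0.259% of all 15438 genes did (40 genes). With DESeq2 1 member passed, Rab3b, where 1.53% of the 13040 genes that it adjusted did. At an unadjusted edgeR p under 0.05, 5 members were higher in KO against a background of 6.06% of all genes, and 0 were lower against 4.53%. Of the 42 members 24 had a positive and 18 a negative log2 fold change. Their median was 0.05, beside 0.02 for all genes tested. It was 0.011 without KO replicate 1, 0.032 without KO replicate 3, 0.025 with upper-quartile scaling and 0.018 with a covariate for oligodendrocyte and microglia markers. For single members the log2 fold changes ran from -0.24 for Rims1 to 0.51 for Rab3b.

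The size of change that these libraries leave room for was narrow. By limma-trend, the 95% interval of the log2 fold change lay inside a 2-fold change in either direction for all 42 members, as it did for 77.3% of all genes. It lay inside 1.5-fold for 38 members, against 53.5% of all genes. The other members were Rab3b and Rph3a, whose intervals ran up to 0.74 and 0.71, and Syt2 and Stx1a, whose intervals ran down to -0.59 and -0.61. The interval excluded 0 for 5 members, Rab3b, Rph3a, Snap91, Nsf and Cadps. Each interval stands for its gene alone and is not adjusted for the number of genes. The shares of all genes are not matched for level. The lowest member averaged 11.4 CPM over both groups, and 8995 of the 15438 genes reached that level. Among those genes the median size of the log2 fold change was 0.124, beside 0.120 for the members.

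**Figure D1:**
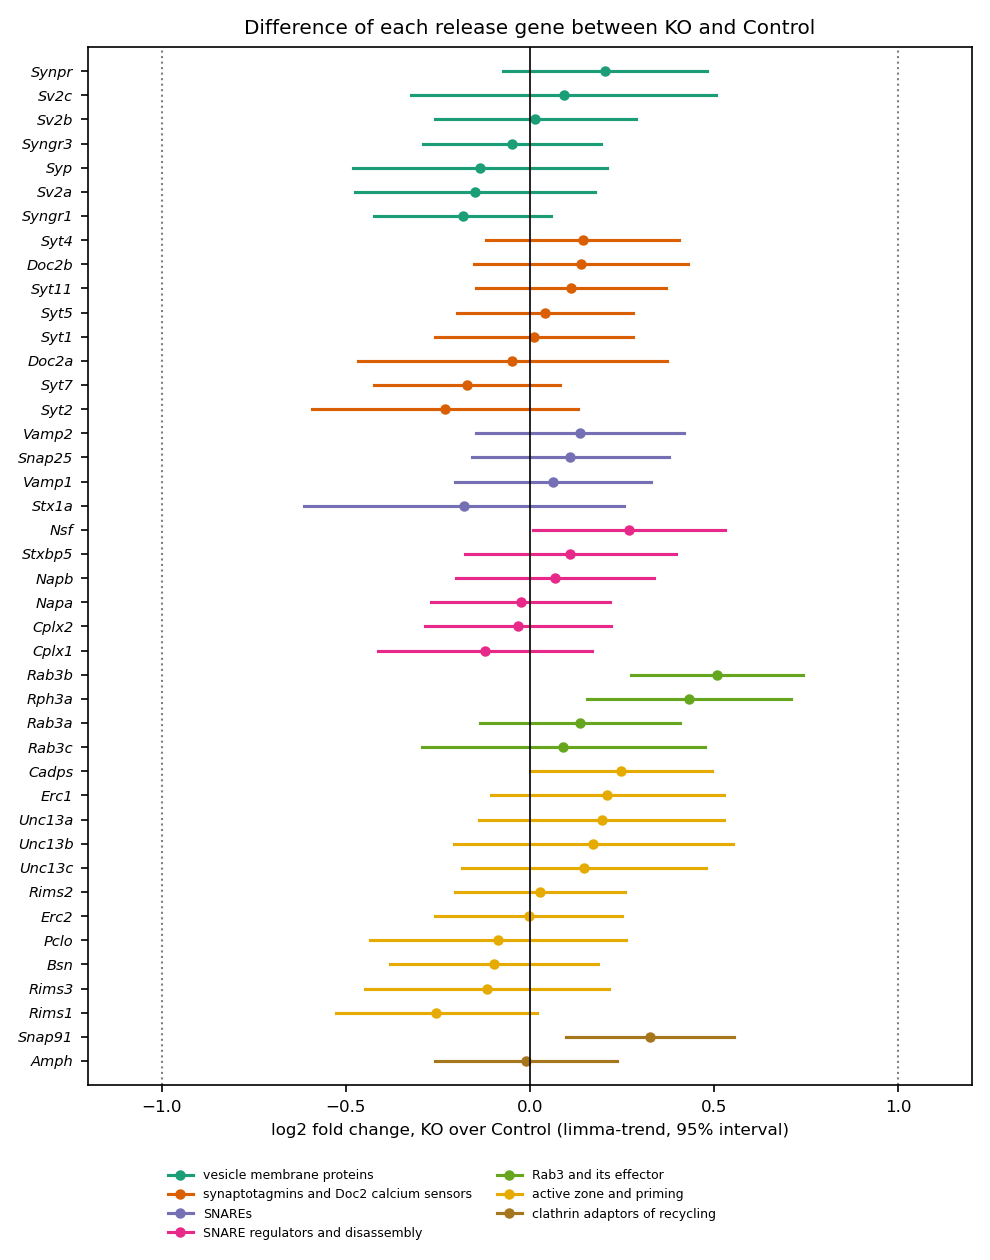
Log2 fold change of each of the 42 release genes, KO over Control, with its 95% interval by limma-trend (x axis), ordered by role and size (y axis, colour by role, n = 4 each). Dotted lines mark a 2-fold change; all intervals lie between them, and Rab3b and Rph3a reach farthest to the right.

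The promoter windows were examined for the octamers that Capicua is known to bind, because its gene was the one deleted. RefSeq promoter windows (GRCm38.p6, 250 bases before to 50 bases after a start site) were found for 33 of the 42 genes, 42 windows in all. The motifs searched were TGAATGAA, TCAATGAA, TGAATGGA and TCAATGGA on both strands, and a window with overlapping or repeated matches was counted once. At least 1 of them lay in 2 of the 42 members' windows (4.76%) and in 1260 of all 32851 windows (3.84%). The windows with a match were those of Bsn at chr9:108190334-108190633 and Unc13c at chr9:73968988-73969287, both on the minus strand, and are printed 5′ to 3′ with the octamer in capitals, as it reads on the gene's own strand. The window of Rab3b at chr4:108878820-108879119 on the plus strand, printed because this gene had the smallest p of the members, held none of these letters.
Bsn: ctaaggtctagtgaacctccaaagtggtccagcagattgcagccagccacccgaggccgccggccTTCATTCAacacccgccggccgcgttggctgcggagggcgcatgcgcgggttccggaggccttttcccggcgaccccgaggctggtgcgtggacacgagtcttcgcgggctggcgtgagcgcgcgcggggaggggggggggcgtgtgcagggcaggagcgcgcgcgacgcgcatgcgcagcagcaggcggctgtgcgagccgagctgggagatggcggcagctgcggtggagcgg
Unc13c: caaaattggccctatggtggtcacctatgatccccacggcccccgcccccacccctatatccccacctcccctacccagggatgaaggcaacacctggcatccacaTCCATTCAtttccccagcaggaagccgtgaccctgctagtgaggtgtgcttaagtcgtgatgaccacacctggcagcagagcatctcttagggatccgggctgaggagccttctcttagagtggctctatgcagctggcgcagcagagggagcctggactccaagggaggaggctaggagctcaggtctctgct
Rab3b: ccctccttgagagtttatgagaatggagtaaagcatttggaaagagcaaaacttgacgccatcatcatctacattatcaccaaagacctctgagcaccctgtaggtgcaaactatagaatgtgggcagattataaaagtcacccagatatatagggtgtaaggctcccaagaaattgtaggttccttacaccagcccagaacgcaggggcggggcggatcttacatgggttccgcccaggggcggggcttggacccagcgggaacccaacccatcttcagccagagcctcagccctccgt

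In the Bsn window the octamer began 185 bases before the start site, and in the Unc13c window 144 bases before it. Neither gene passed the test: Bsn was at a log2 fold change of -0.11 and Unc13c at 0.15, with edgeR adjusted p = 0.848 and 0.819. A match is a description of the letters only.

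Rab3 GTPases sit on vesicles and bind RIM and rabphilin when loaded with GTP. Their 4 genes, effector included, were the role group with the highest median, 0.30, and with 4 of 4 values positive. Leaving out 1 library, Rab3c ranged from -0.061 to 0.24 and Rab3a from 0.026 to 0.23, and the group as such was not tested. Rab3b, the isoform known from neuroendocrine cells and from some synapses, measured 165, 140.1, 157 and 164 CPM in KO replicates 1 to 4, against 102, 112, 109 and 118 CPM in Control replicates 1 to 4. All KO libraries lay above all Control libraries. The gene spans chr4:108879063-108943324 on the plus strand (GRCm38), and 9.0% of its merged exon length overlaps the antisense gene 8030443G20Rik, whose reads cannot be told apart from its own without a known strand setting. The means were 157 ± 11.6 CPM in KO and 110.1 ± 6.74 CPM in Control (n = 4 each), a 1.42-fold difference (log2 fold change 0.51, SE 0.07), with edgeR adjusted p = 0.0715, which misses the threshold, and DESeq2 adjusted p = 0.00155, which passes it. Over all 17 alternative settings the adjusted p of Rab3b ran from 0.00155 to 0.348, and DESeq2 was the only one that put it under 0.05. Leaving out 1 library kept its log2 fold change between 0.47 and 0.55. With the oligodendrocyte and microglia marker level as a covariate it was 0.50 (edgeR adjusted p = 0.235). The sum of the lineage and peptide genes given above was also higher in all KO libraries, though none of these genes was so singly. The part of these genes in the Rab3b difference was not tested.

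Rph3a, rabphilin, at chr5:120940499-121010092 on the minus strand, is a Rab3 effector with calcium-binding C2 domains. It measured 484, 494, 719 and 454 CPM in KO and 399, 390.1, 396 and 384 CPM in Control. Here too the groups did not overlap, with KO replicate 3 far above the rest and the Control libraries close together. The means were 538 ± 122 CPM in KO and 392 ± 6.71 CPM in Control, with a log2 fold change of 0.46 (SE 0.15, edgeR adjusted p = 0.200). Without KO replicate 3 the log2 fold change was 0.28, at edgeR adjusted p = 0.380.

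Rab3a, the main Rab3 of brain synapses, had 504, 407, 507 and 630.3 CPM in KO and 436, 466, 426 and 520.1 CPM in Control. The groups overlapped, KO replicate 2 being the lowest of the 8 libraries and KO replicate 4 the highest (log2 fold change of 0.15 with SE 0.14, and edgeR adjusted p = 0.762). Rab3c ranged from 472 to 858 CPM in KO and from 440.3 to 680.4 CPM in Control, with a log2 fold change of 0.12 and edgeR adjusted p = 0.877. The ratio of 2 genes' counts within a library needs no library size. Rab3b counts were 0.327, 0.344, 0.310 and 0.261 of Rab3a counts in KO, against 0.234, 0.241, 0.255 and 0.227 in Control. This ratio did not overlap between the groups (difference of the mean log2 ratio 0.37, SE 0.09, exact two-sided permutation p = 0.0286, the smallest that 4 against 4 allows). Adjusted over the 18 pairs compared it was 0.514, a threshold that a single pair at the smallest possible p could not pass. Rab3c over Rab3a differed by -0.05 (SE 0.30, exact permutation p = 0.886).

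Of the clathrin adaptors, Snap91 (AP180, chr9:86765923-86880654 on the minus strand), which sizes vesicles as they are recovered, measured 298, 273, 260.4 and 272 CPM in KO against 210.0, 206, 236 and 228 CPM in Control. The groups did not overlap. Its means were 276 ± 15.7 CPM in KO and 220.1 ± 14.4 CPM in Control (log2 fold change of 0.33 with SE 0.06, and edgeR adjusted p = 0.276), and 0.30 without KO replicate 4 and Control replicate 2. Amph, amphiphysin, which links clathrin coats to dynamin, averaged 110.2 ± 15.0 CPM in KO and 110.4 ± 5.05 CPM in Control. With Rab3b and Rph3a, Snap91 completed the 3 members whose KO libraries all lay above every Control library, against 3.01% of all genes. No member had all KO libraries below every Control library, against 2.91% of all genes.

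**Figure D2:**
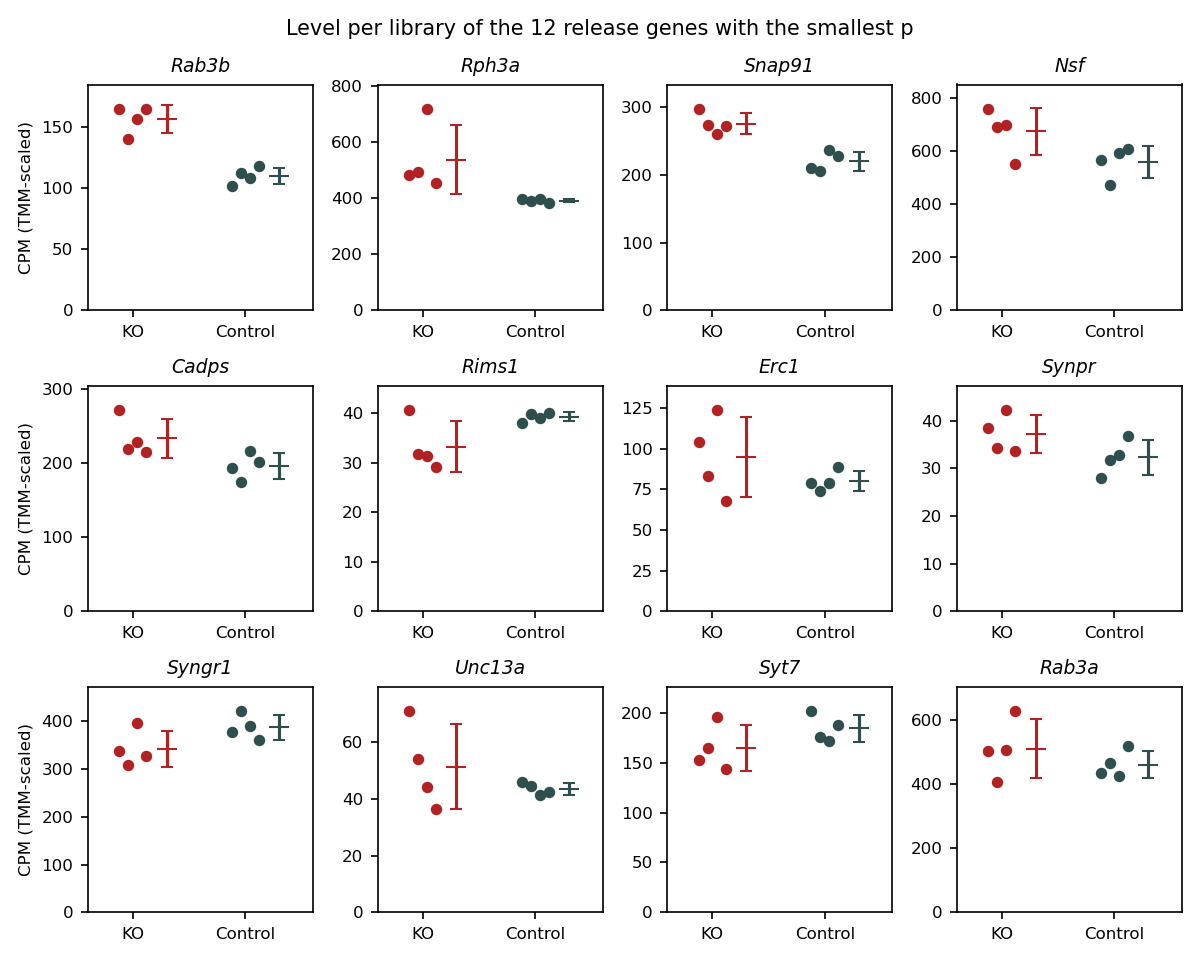
CPM per library (y axis from 0, points, in replicate order) for the 12 release genes with the smallest p, KO left of Control in each panel, with mean and SD beside the points (n = 4 each). Only Rab3b, Rph3a and Snap91 show no overlap between the groups; for Rims1, 3 of 4 KO libraries lie below the Control libraries.

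The active zone and priming genes showed no common direction, with 7 of 11 values positive and a median of 0.03. Munc13 proteins open syntaxin so that SNARE complexes can form. Unc13a measured 71.1, 53.9, 44.2 and 36.5 CPM in KO against 46.1, 44.6, 41.3 and 42.5 CPM in Control. The KO libraries spread from below to far above the Control range (means 51.4 ± 14.9 CPM in KO and 43.6 ± 2.16 CPM in Control, log2 fold change of 0.24 with SE 0.21, and edgeR adjusted p = 0.662), and without KO replicate 1 the log2 fold change was 0.03. Unc13b averaged 12.1 ± 2.10 CPM in KO and 10.7 ± 1.31 CPM in Control, the lowest CPM of the 42 members. Unc13c, at 121 ± 25.1 CPM in KO and 109.7 ± 22.9 CPM in Control, is best known from cerebellar granule cells.

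RIM proteins hold calcium channels, Munc13 and Rab3 together. Rims1 was at 40.7, 31.6, 31.3 and 29.0 CPM in KO and at 38.0, 39.8, 39.0 and 40.0 CPM in Control. In KO replicates 2 to 4 it lay below every Control library, and in KO replicate 1 above them all. The means were 33.2 ± 5.14 CPM in KO and 39.2 ± 0.904 CPM in Control (log2 fold change of -0.24 with SE 0.11, and edgeR adjusted p = 0.537), and without KO replicate 1 the log2 fold change was -0.37 (edgeR adjusted p = 0.235). Rims2 was among the steadiest members, between 111 and 124 CPM in KO and between 109 and 124 CPM in Control. The ratio of Rims2 to Rims1 counts averaged 1.85 on the log2 scale in KO and 1.56 in Control (difference 0.28, SE 0.11, exact permutation p = 0.0857, adjusted 0.771), with overlap between the groups. Rims3, which has only the C-terminal part of the family, averaged 18.7 ± 3.49 CPM in KO and 20.1 ± 1.91 CPM in Control.

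The giant scaffolds Bsn (bassoon) and Pclo (piccolo) were at log2 fold changes of -0.11 and -0.05. Bsn measured 87.1 ± 11.0 CPM in KO and 93.7 ± 15.8 CPM in Control, and Pclo 116 ± 33.1 CPM in KO and 120.1 ± 17.1 CPM in Control. Pclo was low in KO replicates 1 and 4, at 83.3 and 93.8 CPM, and high in KO replicates 2 and 3, at 154 and 132 CPM. ELKS proteins bind RIM and liprins at the same sites. Erc1 had 104, 83.1, 124 and 67.7 CPM in KO and 78.7, 74.0, 78.7 and 88.6 CPM in Control (log2 fold change of 0.24 with SE 0.20, and edgeR adjusted p = 0.616), with the lowest and the highest library both in KO. Its log2 fold change was 0.089 without KO replicate 3 and 0.37 without KO replicate 4, and 11.8% of its merged exon length overlaps the antisense gene Gm44317. Its relative Erc2, the more brain-restricted one, averaged 119.5 ± 16.3 CPM in KO and 119 ± 9.88 CPM in Control.

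Cadps, which encodes CAPS1, a priming factor of dense-core granules, measured 273, 219, 228 and 216 CPM in KO against 194, 175, 217 and 202 CPM in Control. Only KO replicate 4 lay within the Control range. The means were 234 ± 26.4 CPM in KO and 197 ± 17.7 CPM in Control (log2 fold change of 0.25 with SE 0.10, and edgeR adjusted p = 0.469).

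SNARE proteins form the bundle that pulls vesicle and plasma membrane together. The log2 fold changes of their 4 genes ran from -0.11 to 0.15, and 0 passed the threshold by edgeR. Snap25 had 10157, 11296, 14351 and 10307 CPM in KO and 10267, 10148, 9942 and 12083 CPM in Control. It was by far the most abundant member and alone made up 44.7% to 49.9% of the members' summed CPM in KO libraries and 44.6% to 49.3% in Control libraries. KO replicate 3 was the highest of the 8 libraries, and the other KO libraries lay within the Control range (log2 fold change of 0.12 with SE 0.13, and edgeR adjusted p = 0.819).

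Vamp2, the main vesicle SNARE of forebrain synapses, had 1832, 1689.7, 2642 and 2024 CPM in KO and 1710.5, 2134, 1719 and 1811 CPM in Control (log2 fold change of 0.15 with SE 0.16, and edgeR adjusted p = 0.768). Again KO replicate 3 was highest, and KO replicate 2 was lowest; without KO replicate 3 the log2 fold change was 0.0040. Vamp1 averaged 536 ± 90.3 CPM in KO and 509.9 ± 51.9 CPM in Control, and the ratio of Vamp1 to Vamp2 differed by -0.07 on the log2 scale (SE 0.11, exact permutation p = 0.514). Stx1a, a plasma membrane syntaxin, had 30.3, 13.5, 21.5 and 31.3 CPM in KO and 22.1, 27.4, 27.0 and 27.6 CPM in Control. KO replicate 2 held the lowest value and KO replicate 4 the highest, a 2.32-fold range within KO (log2 fold change of -0.11 with SE 0.29, and edgeR adjusted p = 0.904).

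Among SNARE regulators, Cplx1 had 772, 1131, 1105 and 901 CPM in KO and 1009, 1065, 886 and 1285 CPM in Control, with a log2 fold change of -0.12 (SE 0.17, edgeR adjusted p = 0.836). KO replicate 1 was the lowest of the 8 libraries and Control replicate 4 the highest. Cplx2 averaged 371 ± 51.0 CPM in KO and 378 ± 34.5 CPM in Control. Stxbp5 (tomosyn), which competes for SNARE assembly, averaged 136 ± 27.5 CPM in KO and 125 ± 10.8 CPM in Control.

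The disassembly enzyme Nsf had 761, 694, 701 and 552 CPM in KO against 569.5, 473, 593 and 607 CPM in Control. All KO libraries but replicate 4 lay above the Control range, and the means were 677 ± 88.7 CPM in KO and 561 ± 60.6 CPM in Control (log2 fold change of 0.27 with SE 0.13, and edgeR adjusted p = 0.451). Without KO replicate 4 the log2 fold change was 0.35 (edgeR adjusted p = 0.177). Its adaptors Napa and Napb (alpha- and beta-SNAP) were at log2 fold changes of -0.03 and 0.08. Napa lies on chromosome 7, 9.15 Mb from Cic, so an effect of neighbouring DNA carried along with the floxed locus and an effect of the deletion cannot be told apart for this gene.

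Many synaptotagmins, though not all, and the Doc2 proteins sense calcium through C2 domains. Of these 8 genes 4 were on each side of 0, with values from -0.19 to 0.14. Syt1, the fast sensor of most forebrain synapses, had 471, 542, 451 and 487 CPM in KO and 494, 374, 524 and 561 CPM in Control. The means were 488 ± 39.0 CPM in KO and 488 ± 80.7 CPM in Control, with a limma-trend interval of -0.26 to 0.28. Syt2, the fast sensor of hindbrain and fast-spiking synapses, had 32.1, 33.4, 24.3 and 17.5 CPM in KO and 29.5, 30.6, 34.0 and 28.1 CPM in Control, with KO replicates 3 and 4 below the Control range (log2 fold change of -0.19 with SE 0.22, and edgeR adjusted p = 0.767).

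Syt7, a slow, high-affinity sensor of asynchronous release and granule fusion, had 153, 165, 196 and 143 CPM in KO and 202, 175, 172 and 188 CPM in Control. The KO libraries other than replicate 3 lay below the Control range (log2 fold change of -0.17 with SE 0.11, and edgeR adjusted p = 0.699). Syt4, known from peptide granules of hypothalamic neurons, had 266, 277, 216 and 219.7 CPM in KO and 211, 209, 265 and 201 CPM in Control (log2 fold change of 0.14 with SE 0.13, and edgeR adjusted p = 0.762). Its overlapping values include Control replicate 3, at the level of KO replicate 1, and 14.5% of its merged exon length overlaps the antisense gene Gm26658.

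Syt11, which does not bind calcium as Syt1 does and is also found in glia, averaged 599.9 ± 67.7 CPM in KO and 556 ± 75.9 CPM in Control. Syt5 was level, at 156 ± 10.7 CPM in KO and 152 ± 14.5 CPM in Control. The high-affinity sensors Doc2a and Doc2b had log2 fold changes of -0.02 and 0.14. Doc2a shares 39.4% of its merged exon length with Ino80e on the opposite strand, so its reads are uncertain.

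Integral vesicle proteins had 2 positive and 5 negative values and a median of -0.04. Syp (synaptophysin), which binds Vamp2, ranged from 760.3 to 1587 CPM in KO and from 1111 to 1375 CPM in Control, the lowest and the highest library both being KO, and 16.8% of its merged exon length overlaps the antisense gene Gm14703 (log2 fold change -0.09, edgeR adjusted p = 0.900). Its relative Synpr (synaptoporin) had 38.5, 34.4, 42.3 and 33.8 CPM in KO and 28.0, 31.8, 32.8 and 36.9 CPM in Control (log2 fold change of 0.20 with SE 0.11, and edgeR adjusted p = 0.640). Only Control replicate 4 reached into the KO range. The ratio of Syp to Synpr differed by -0.34 on the log2 scale (SE 0.20, exact permutation p = 0.171).

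Syngr1 (synaptogyrin 1) had 337, 308, 396 and 328 CPM in KO and 378, 422, 390.1 and 359.8 CPM in Control, with all KO libraries but replicate 3 below the Control range (log2 fold change of -0.18 with SE 0.09, and edgeR adjusted p = 0.641). Syngr3 averaged 228 ± 25.3 CPM in KO and 235 ± 15.0 CPM in Control. The genes of the SV2 glycoproteins, which act on synaptotagmin and are receptors of botulinum toxin, did not pass the threshold. In KO replicates 2 to 4 Sv2a lay below every Control library, and in KO replicate 1 above them all. Its log2 fold change was -0.13, and -0.34 without KO replicate 1 (edgeR adjusted p = 0.846 and 0.352). Sv2b and Sv2c were at -0.0017 and 0.078. Sv2a averaged 143 ± 38.5 CPM in KO and 156 ± 26.3 CPM in Control, Sv2b 148 ± 10.6 CPM in KO and 148 ± 26.4 CPM in Control, and Sv2c 23.8 ± 5.81 CPM in KO and 22.6 ± 7.26 CPM in Control.

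Compared per length, in CPM per kb of merged exons, rescaled to a common total, the members spanned from Snap25 at 6563 ± 1125 in KO and 6244 ± 572 in Control to Unc13b at 2.07 ± 0.413 in KO and 1.88 ± 0.225 in Control. Next to Snap25 came Vamp2, at 2073 ± 404 in KO and 1933 ± 184 in Control, and Cplx1, at 1726 ± 311 in KO and 1937 ± 294 in Control, whose order the spread does not settle. On this scale Stx1a, at 34.9 ± 11.8 in KO and 39.0 ± 3.79 in Control, was far below its SNARE partners. Rab3a (885 ± 126 in KO, 829 ± 71.2 in Control) stood above Rab3c (208 ± 67.6 in KO, 197 ± 36.9 in Control) and Rab3b (172 ± 13.2 in KO, 125 ± 6.92 in Control). The active zone genes were all in the lower part of the range, the highest of them being Cadps at 60.3 ± 9.07 in KO and 52.3 ± 5.24 in Control. These levels rest on all annotated exons of a gene, and isoforms that use fewer exons are understated.

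**Figure D3:**
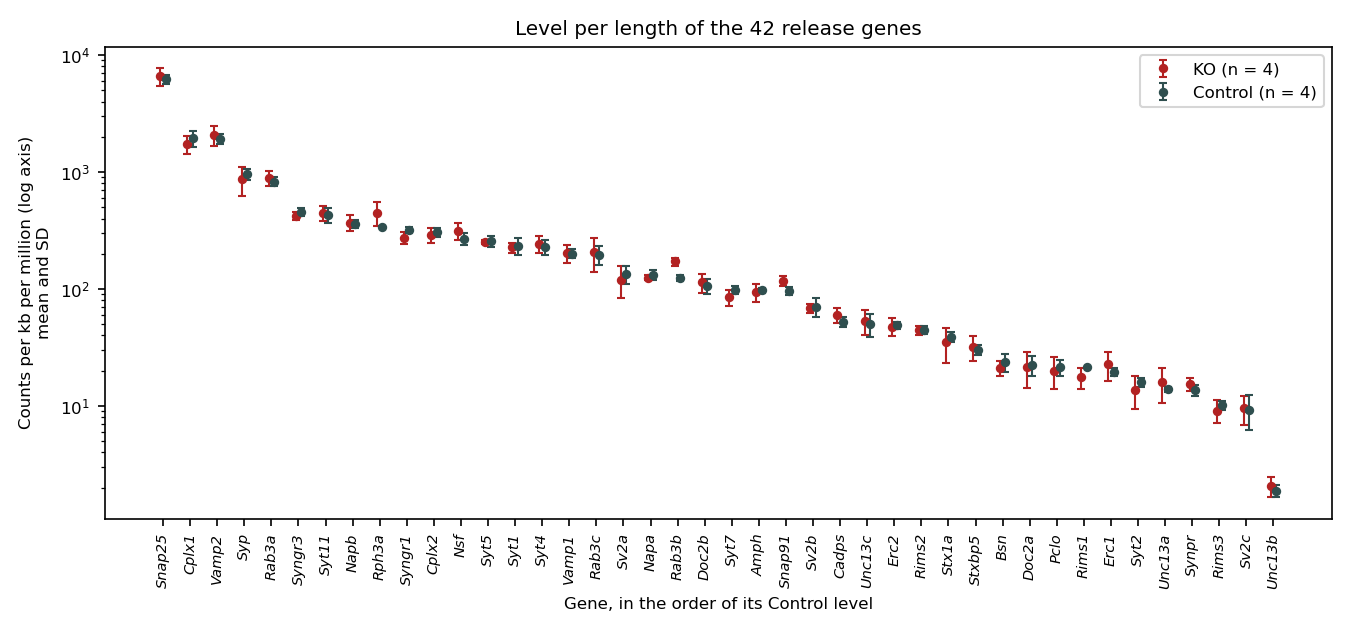
Level of the 42 release genes in CPM per kb of merged exons, rescaled to a common total (y axis, log scale), mean and SD of 4 KO and 4 Control libraries, ordered along the x axis by the Control level. The genes span from Snap25 at 6563 in KO and 6244 in Control to Unc13b at 2.07 in KO and 1.88 in Control. Differences between the groups are small beside that span. Rab3b was at 172 in KO and 125 in Control, and Rph3a at 448 in KO and 338 in Control.

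Paralogues were compared by the ratio of their counts in each library. Of 18 pairs, Rab3b over Rab3a was the only one whose groups did not overlap, and its adjusted exact permutation p was 0.514. The smallest exact permutation p that these libraries allow is 0.0286. A single pair at that value could not pass after adjustment over 18 pairs, so the adjusted p does not decide whether this ratio differs. The other pairs differed by -0.34 to 0.28 on the log2 scale, with exact permutation p from 0.0857 to 0.971. Near level were Bsn over Pclo, which differed by -0.01 (SE 0.13), and Unc13b over Unc13a, which differed by -0.02 (SE 0.22).

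**Figure D4:**
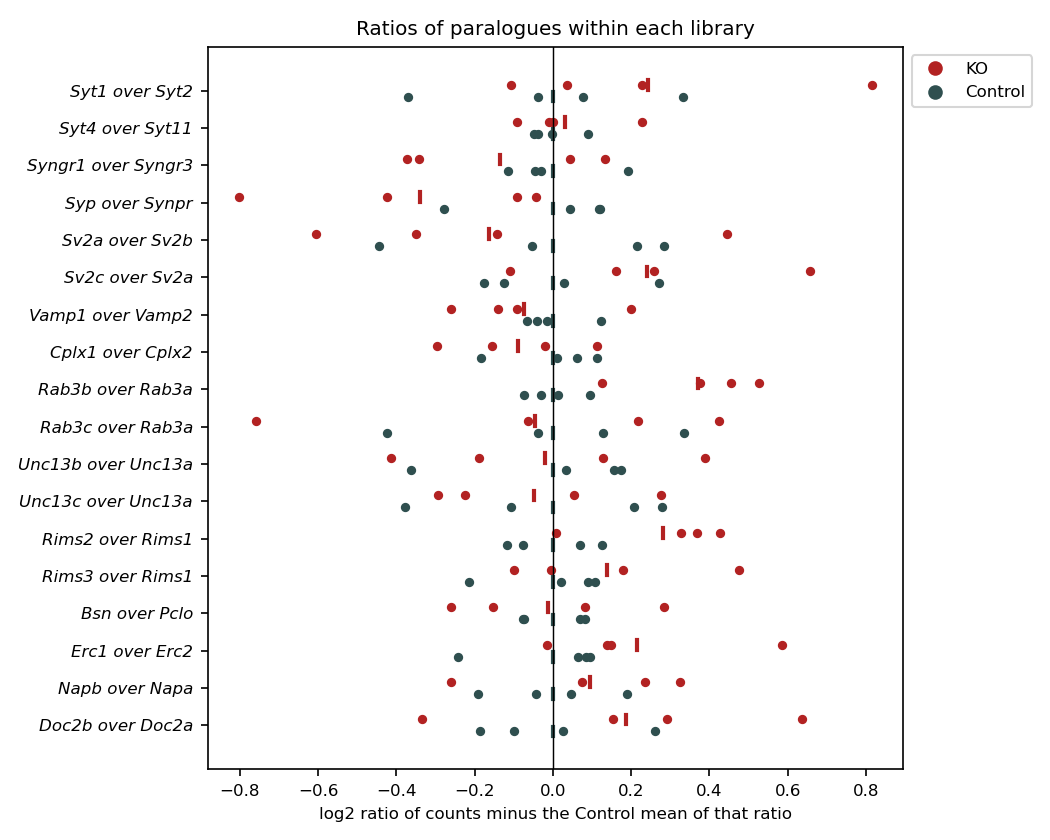
Log2 ratio of the counts of paralogues in each library, minus the Control mean of that ratio (x axis), for 18 pairs (y axis), with KO points above Control points in each row and short bars at the means (n = 4 each). All 4 KO points of Rab3b over Rab3a lie to the right of the Control points; the groups overlap in every other pair.

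Replicates differed more within KO than within Control. The coefficient of variation was larger in KO for 30 of 42 members (71.4%), with a median of 16.5% in KO and 9.56% in Control. The same held for 71.4% of all genes tested, with medians of 19.7% in KO and 13.2% in Control. KO replicate 4 was the lowest of the 4 KO libraries for 22 members, and Control replicate 2 the lowest of the 4 Control libraries for 15. In those libraries long transcripts were relatively low: across the 42 members, a gene's deviation from its group mean and its merged exon length had a Spearman rho of -0.50 in KO replicate 4 and -0.37 in Control replicate 2, against 0.12 to 0.21 in the other 6 libraries. Over 12158 genes it was -0.36 and -0.20 in those libraries and -0.11 to 0.23 in the other 6, with Control replicate 4 the lowest of these. KO replicate 4 also had the fewest gene counts and the largest share of alignments that were not unique, 81.9%. This share was high in every library, from 63.3% in Control replicate 1 to 75.5% in KO replicate 3 among the others. Without both libraries 0 members passed, and the log2 fold change was 0.49 for Rab3b and 0.52 for Rph3a.

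Summed over the 42 members, the CPM were 22737, 23107, 28766 and 22375 in KO and 21927, 22087, 22294 and 24511 in Control. KO replicate 3 stood above the other libraries, and without Snap25 it did so too, at 14415 CPM against 11812 to 12580 CPM in the other KO libraries and 11660 to 12428 CPM in Control.

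**Figure D5:**
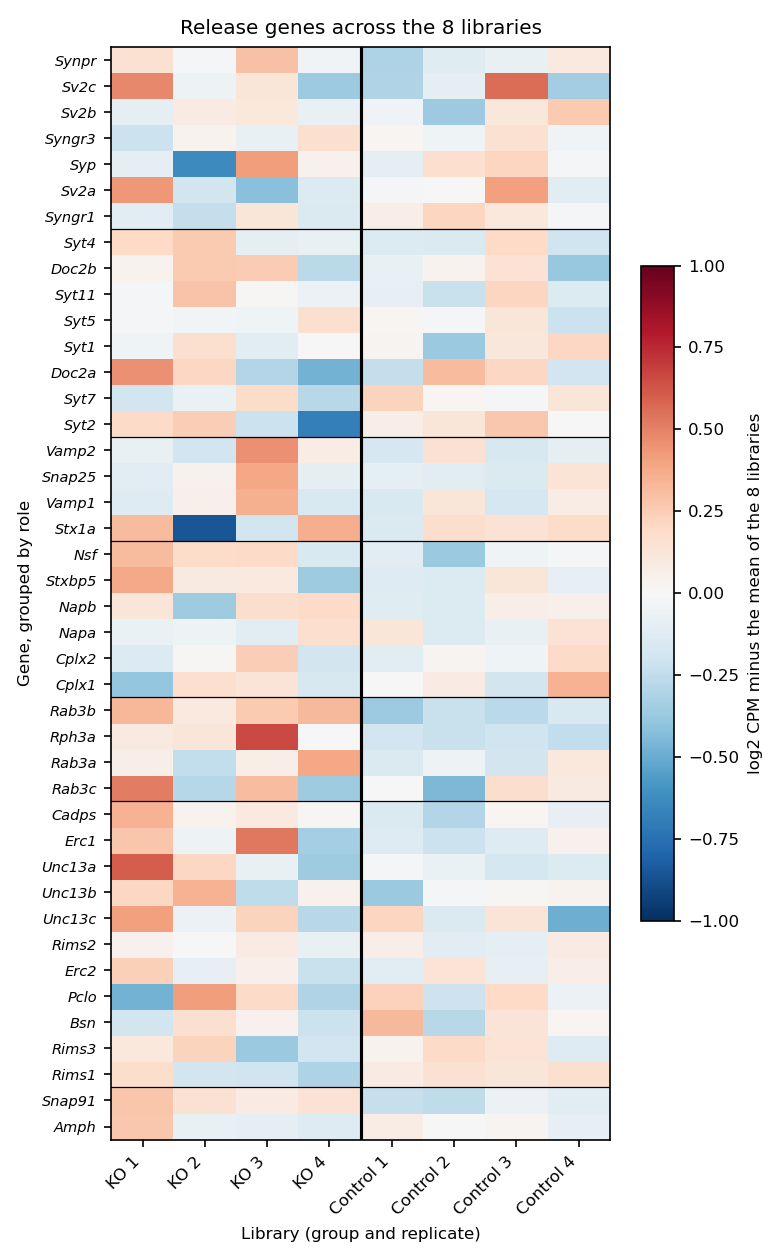
Log2 CPM of each release gene minus its mean over the 8 libraries (colour), for KO replicates 1 to 4 left of Control replicates 1 to 4 (x axis), with genes grouped by role (y axis). Rab3b and Snap91 are above their mean in all 4 KO libraries and below it in all 4 Control libraries, while Vamp2, Snap25 and Vamp1 are high in KO replicate 3.

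Other genes of the vesicle cycle, taken from lists of known function, held no calls, apart from the synapsins. Of 60 tested genes of exocytosis outside the 42, 0 rose and 0 fell by edgeR, with 8 higher and 3 lower at an unadjusted p under 0.05 and a median log2 fold change of 0.10. Those of smallest p were Stxbp4, at 49.7 ± 5.72 CPM in KO and 36.6 ± 3.60 CPM in Control (0.44, edgeR adjusted p = 0.181), Snap47, a SNAP25 relative (0.33, edgeR adjusted p = 0.253), and Cadps2, the paralogue of Cadps (0.38, edgeR adjusted p = 0.336). Of 37 tested genes of clathrin-mediated recovery 0 rose and 0 fell, with 3 higher and 2 lower at an unadjusted p under 0.05 and a median of 0.08. Dnm3, a dynamin, was at 0.52 (edgeR adjusted p = 0.203). Synj1, the phosphatase that strips coats from vesicles, measured 426 ± 39.4 CPM in KO and 327 ± 29.0 CPM in Control without overlap (0.38, edgeR adjusted p = 0.213). Its paralogue Synj2 was at -0.40 (edgeR adjusted p = 0.258).

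The 17 tested genes of vesicle filling likewise held 0 calls, with 2 higher and 0 lower at an unadjusted p under 0.05 and a median of 0.11. Smallest in p were the proton pump subunits Atp6v1g2 (0.38, edgeR adjusted p = 0.258) and Atp6v1a (0.29, edgeR adjusted p = 0.431) and the monoamine transporter gene Slc18a1, at 1.24 ± 0.719 CPM in KO and 0.507 ± 0.383 CPM in Control. The synapsins, which tether vesicles to one another and are no members here, were the exception, with Syn3 (0.80, edgeR adjusted p = 0.00735) and Syn1 (0.64, edgeR adjusted p = 0.0476) past the threshold and Syn2 at 0.27. Whether the synapsins differ from the 42 genes in their response was not tested.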

How the data were processed

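The deposited files hold raw counts of reads per gene for each library. Per the submitters' processing notes, which also name DESeq2, the authors aligned to mm10 using TopHat2 2.0.9 and counted using HTSeq. Annotation, strand setting and read filters: not given in the sources used here. Amplified cDNA was sequenced without molecular identifiers. The 92 ERCC and 5 counter rows were left out. Counts of the 8 libraries were fitted with edgeR 4.0.16 in R 4.3.3 (filterByExpr with minimum count 10 and total 15, TMM, robust quasi-likelihood, no covariate), with Benjamini-Hochberg adjustment over all 15438 genes and a threshold of 0.05. The fit was checked on simulated counts. SE is that of the difference of mean log2 CPM (prior count 2). Intervals came from limma-trend (limma 3.58.1), and DESeq2 1.42.0 was an alternative. Ratios of paralogues used counts plus 0.5 and exact two-sided permutation tests. Exon lengths came from GENCODE M21 (GRCm38, the same assembly as mm10), and 95.7% of gene rows matched a symbol there. The replicate numbers were not used to pair libraries. No 2 libraries repeat each other: chi-square per degree of freedom was 25.9 or more over 28 pairs. Values of every library are given for the 14 members of smallest p, the 3 highest per length and Syt1, Snap25, Vamp2, Stx1a, Unc13a and Rims1. Of the other vesicle cycle lists, the 3 genes of smallest p are named, without the values of every library. Cell type markers are given as counts, with sums for the general neuronal, lineage, oligodendrocyte and microglia lists. Of the markers, Cldn11 and the lineage genes are named. Members and lists were chosen with earlier results of these data known.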

Additional observations from a re-analysis of the deposited data

Results flagged for a closer look

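In 9 of the 84 groups of 4 libraries examined (42 genes in 2 groups), 1 library stood apart from the other 3 by Dixon's test at its 95% level. Chance alone sets about 1 group in 20 apart. Of the 9, 4 were in KO and 5 in Control, and no cause was tested. Rph3a was at 719 CPM in KO replicate 3 against 454 to 494 CPM in the other KO libraries, and its log2 fold change without that library was 0.28. Napb was at 508 CPM in KO replicate 2 against 708 to 743 CPM. Syt5 was at 172 CPM in KO replicate 4 against 149 to 153 CPM. Amph was at 133 CPM in KO replicate 1 against 101 to 105 CPM. In Control replicate 3, Sv2a was at 195 CPM against 137 to 146 CPM in the other Control libraries, and Syt4 at 265 CPM against 201 to 211 CPM. In Control replicate 4, Snap25 was at 12083 CPM against 9942 to 10267 CPM. In Control replicate 1, Stx1a was at 22.1 CPM against 27.0 to 27.6 CPM and Unc13b at 8.76 CPM against 11.1 to 11.6 CPM.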

How the results depend on the processing

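Of 714 combinations of a member and an alternative, 1 passed the threshold, Rab3b with DESeq2, so that DESeq2 called 1 member higher and the other alternatives 0. Over all genes edgeR called 30 higher and 10 lower. The counts were 119 higher and 81 lower with DESeq2, 12 and 2 with the marker covariate, and 12 to 36 and 2 to 17 leaving out 1 library. Total gene counts alone gave 5 lower, and 18 were higher without KO replicate 4 and Control replicate 2, an alternative chosen, like limma-trend, after seeing the data. Correlations of same-numbered libraries ran from -0.05 to 0.10, so the numbers were not taken as pairs. Only for KO replicate 4 was the Control library of highest correlation the one with its own number. With the replicate block 0 members passed, Rab3b had edgeR adjusted p = 0.0693 and 22 genes were lower. Direction held in all 17 alternatives for 24 members, and the others had log2 fold changes of at most 0.12 in size; the cause was not tested.

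Leaving out 1 library gave log2 fold changes on both sides of 0 for Syp (-0.28 to 0.054), Syngr3 (-0.12 to 0.0073), Sv2b (-0.11 to 0.092), Sv2c (-0.094 to 0.32), Syt1 (-0.11 to 0.072), Syt5 (-0.024 to 0.086), Doc2a (-0.21 to 0.11), Snap25 (-0.0031 to 0.19), Stx1a (-0.26 to 0.079), Vamp1 (-0.048 to 0.12), Cplx2 (-0.12 to 0.035), Napa (-0.097 to 0.017), Rab3c (-0.061 to 0.24), Rims2 (-0.0075 to 0.059), Pclo (-0.23 to 0.068), Erc2 (-0.095 to 0.064) and Amph (-0.11 to 0.032). It did so for the ratios of Syt4 to Syt11 (-0.034 to 0.072), Rab3c to Rab3a (-0.20 to 0.19), Unc13b to Unc13a (-0.16 to 0.11), Unc13c to Unc13a (-0.17 to 0.046) and Bsn to Pclo (-0.11 to 0.071). With the replicate block Sv2b was at 0.013, Syt1 at 0.010 and Erc2 at -0.0039. With the marker covariate Sv2b was at 0.094, Sv2c at -0.20, Syt1 at 0.13, Napa at 0.090, Pclo at 0.00079 and Erc2 at -0.078. By limma-trend Sv2b was at 0.014, Syt1 at 0.011 and Erc2 at -0.0041. Upper-quartile scaling put Rims2 at -0.0030 and Erc2 at -0.029. Erc2 was at -0.0062 with DESeq2's size factors and with DESeq2, at -0.013 with total counts and at -0.0085 without the filter. Without KO replicate 4 and Control replicate 2, Syt5 was at -0.013, Doc2a at 0.22, Cplx2 at 0.024, Napb at -0.0077 and Amph at 0.032. Among the members given library by library, others that kept their direction moved by over 1.5 times when 1 library was left out. Without KO replicate 1, Cadps was at 0.16, Syt4 at 0.091, Syt2 at -0.29 and Cplx1 at -0.033. Without KO replicate 2, Rab3a was at 0.23, Syt4 at 0.068, Syt2 at -0.32 and Cplx1 at -0.21. Without KO replicate 3, Syt7 was at -0.26 and Cplx1 at -0.18. Without KO replicate 4, Unc13a was at 0.36, Rab3a at 0.026 and Syt2 at -0.036. Without Control replicate 3, Syt4 was at 0.24 and Cplx1 at -0.20, and without Control replicate 4 Cplx1 was at -0.014.

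A missed threshold does not show that a gene is alike in both groups.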
